A study of Mus musculus with 10 samples.

Results

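Hippocampal microglia that had regrown in 5xFAD mice after drug-induced depletion were compared with microglia of wild-type mice, across all genes of the deposited table. The comparison rests on 7 of the 10 libraries of the series, 3 repopulated 5xFAD and 4 wild-type, taken by their labels, and on all 19782 listed genes, of which 12505 had enough reads to be tested. The remaining 3 libraries came from 5xFAD mice on normal diet that had kept their original microglia, and they are given beside the results as a reference. The question set by the design is what still separates regrown 5xFAD microglia from wild-type microglia.

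5xFAD mice carry mutant human transgenes of familial Alzheimer's disease driven by the neuronal Thy1 promoter, and they form amyloid plaques early in life. The repopulated mice were 4 months old when PLX3397 was first added to their chow at 290 mg/kg. PLX3397 blocks CSF1R, the receptor whose signal keeps microglia alive. The mice received it for 1 month and then normal chow for 1 month, during which microglia grew back. Wild-type mice and control 5xFAD mice received normal diet, and the labels do not state their age at collection. Cells were sorted from hippocampus as CD45low CD11b+, so cells with high CD45, such as most blood-derived leukocytes, fall outside the gate. Libraries were made by a Smart-Seq protocol from 1 ng of total RNA. The labels do not say that the libraries of a group came from separate animals, so the p-values measure the spread between these libraries, which may be technical.

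Microglia around amyloid plaques enter a state called disease-associated microglia, in which the lipid-sensing receptor TREM2 and its adaptor TYROBP are needed to switch on genes of lipid handling, lysosomal digestion and growth factor secretion, while genes of the resting, homeostatic state such as P2ry12 and Tmem119 decline. When a CSF1R inhibitor is withdrawn, microglia that survived divide and refill the brain, and in 5xFAD mice they meet plaques that are already there.

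Each library held 18501136 to 23286814 estimated reads over the listed genes. Levels are given as CPM, reads scaled to a common library size by the trimmed mean of M-values (TMM), which compare 1 gene between libraries and not different genes. Genes were tested with edgeR's quasi-likelihood test in a model of all 3 groups, and a gene was called at a Benjamini-Hochberg adjusted p under 0.05. Wild-type library 3 stood apart. On the first principal component of the 7 libraries, which held 39.8% of the variance, its score was 93.9, while the other wild-type libraries scored -1.61 to 5.62 and the repopulated ones -35.5 to -29.02. Its summed CPM of neuron markers was 67.5, of astrocyte markers 563 and of erythrocyte markers 283, whereas wild-type libraries 1, 2 and 4 held at most 13.4, 315 and 20.7. Transcripts of 4 Y-linked genes, in CPM without TMM scaling, were nearly absent from wild-type library 2 (16.01) and from control 5xFAD libraries 1 and 3 (7.76 and 5.12). They were present in wild-type libraries 1, 3 and 4 (431 to 446), control library 2 (484) and all repopulated libraries (342 to 356). In bulk RNA from sorted cells, fewer cells of a type and less RNA per cell cannot be told apart.

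Regrown 5xFAD microglia differed from wild-type microglia mainly by genes that were higher. Of the 12505 tested genes, 523 (4.18%) were called, 425 higher (3.4%) and 98 lower (0.784%) in repopulated microglia. A change of at least 2-fold was seen in 258 of the higher genes (2.06% of those tested) and in 23 of the lower ones (0.184%), and the median log2 fold change of all tested genes was -0.02. The libraries of the groups did not overlap for 1995 genes (16%), 1142 higher (9.13%) and 853 lower (6.82%), and 1884 genes (15.1%) had an unadjusted p under 0.05. In the same model control 5xFAD microglia differed from the same wild-type libraries at 2265 genes (18.1%), and repopulated from control 5xFAD microglia at 71 (0.568%). These comparisons share libraries, so their counts are given side by side and are not independent. The count of lower genes depended on single libraries: without repopulated library 1 there were 286 higher and 19 lower genes, without library 2 272 and 12, and without library 3 260 and 36. DESeq2 gave 573 higher and 207 lower genes.

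**Figure D1:**
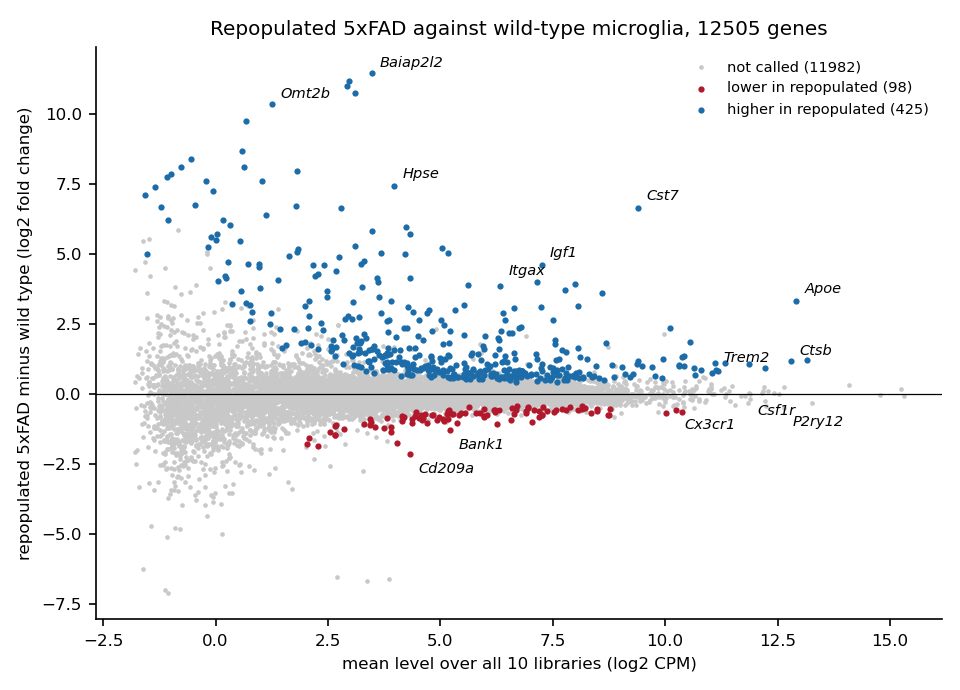
Log2 fold change between repopulated 5xFAD and wild-type microglia (vertical axis) against the mean level over 10 libraries in log2 CPM (horizontal axis), one point per tested gene, with the 425 genes called higher in blue, the 98 called lower in red and the rest in grey. Higher genes reach far larger changes than lower ones. The grey points near the lower edge include haemoglobin genes that were by far the highest in wild-type library 3 (Hba-a1 8.78, 4.18, 129 and 0 CPM in wild-type libraries 1 to 4).

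The genes of disease-associated microglia had the largest share of raised members among the 22 pathway lists examined. Of 44 members, all tested, 39 rose and 0 fell, where 3.4% of all tested genes rose, and the list's median log2 fold change was 2.12 against -0.02 over all tested genes. In control against wild-type microglia 40 members rose and 0 fell (median 2.39), where 10.1% of tested genes rose. Between repopulated and control microglia 3 members were lower and 0 higher, where 0.216% of tested genes were lower. The number of members that rose ranged from 35 to 41 over all alternative settings and left-out libraries. The lists share members: Ctsd, Cd68, Hif1a, Igf1, Itgax and Trem2, for example, are counted here and again in lists below. The shares of the lists are therefore not separate results.

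Apoe (chr7:19696244-19701310), which encodes the lipid carrier apolipoprotein E, measured 1200.3, 612, 1433 and 858 CPM in wild-type libraries 1 to 4 and 9634, 10301 and 10531 CPM in the repopulated libraries. The lowest repopulated value was several times the highest wild-type value. Control 5xFAD libraries held 15899, 8104 and 18928 CPM. The difference from wild type was 9.898-fold (log2 fold change 3.31, SE 0.30, edgeR adjusted p = 4.43e-06). In the deposited TPM, which are scaled to transcript length and so compare genes, Apoe averaged 15500 in repopulated microglia against 11201 for Ctsd, 8229.8 for Ctsb and 4036 for P2ry12, and 1773 against 5527, 4061 and 6525 in wild-type microglia. By TPM, Apoe thus lay below these 3 genes in wild-type and above them in repopulated microglia.

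Cst7 (chr2:150570415-150578944) encodes cystatin F, an inhibitor of lysosomal cysteine proteases that marks plaque-associated microglia. It measured 4.49, 8.45, 15.1 and 11.8 CPM in the wild-type libraries and 882, 957 and 1087 CPM in the repopulated ones. The groups did not overlap, and control 5xFAD libraries lay at 1384, 1033 and 1372 CPM. The fold change was 97.98 (log2 6.61, SE 0.32, edgeR adjusted p = 2.62e-08). The receptor chain that precedes these genes changed less. Trem2 (chr17:48346401-48352276) measured 1629, 1414, 1496 and 1492 CPM in wild-type and 2677, 2648 and 2696 CPM in repopulated libraries, 1.77-fold higher (edgeR adjusted p = 0.00545). Its repopulated values were almost the same, while the control 5xFAD values of 2961, 2036 and 3221 CPM spread around them. Tyrobp, the signalling adaptor of TREM2, rose from 717 ± 122 CPM (mean ± SD, n = 4) to 1842 ± 107 CPM (n = 3), with no overlap between the groups (edgeR adjusted p = 3.75e-04).

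Several surface and secreted products of this state were also higher than in wild type. Itgax, which encodes the integrin CD11c, measured 7.38, 6.601, 6.07 and 12.4 CPM in wild-type libraries and 109, 124 and 120.5 CPM in repopulated ones (14.5-fold, edgeR adjusted p = 1.34e-07). All repopulated values fell between the lowest and the highest control value (158, 94.5 and 163 CPM). Ank, a membrane exporter of pyrophosphate and ATP, rose 12.97-fold from 24.95 ± 4.82 to 324 ± 11.5 CPM, and Axl, a receptor for apoptotic cells, rose 15.8-fold from 12.7 ± 7.12 to 202 ± 13.2 CPM. Csf1, a ligand of the receptor that PLX3397 inhibits, measured 7.38, 3.42, 10.6 and 7.68 CPM in wild-type and 54.1, 72.8 and 69.5 CPM in repopulated libraries (8.99-fold, edgeR adjusted p = 3.98e-05). Clec7a, the beta-glucan receptor Dectin-1, rose by 3.59 on the log2 scale, to 479 ± 77.8 CPM. Its wild-type values were 28.7, 26.97, 72.6 and 31.3 CPM, with library 3 above the others. Lpl, lipoprotein lipase, rose 15.02-fold from 20.01 ± 5.998 to 301 ± 61.9 CPM, and Spp1, osteopontin, rose 8.64-fold from 32.3 ± 15.7 to 279 ± 66.2 CPM. Neither differed from control 5xFAD microglia at the threshold (edgeR adjusted p = 0.0806 and 0.152).

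The 3 list members that were lower than in control 5xFAD microglia remained above wild type. Igf1, insulin-like growth factor 1, measured 7.52, 5.65, 2.48 and 5.57 CPM in wild-type, 382, 370.1 and 369 CPM in control and 119, 105 and 158 CPM in repopulated libraries. The repopulated libraries lay between the other groups with no overlap on either side, 23.9-fold above wild type (edgeR adjusted p = 5.77e-08) and 2.94-fold below control 5xFAD (adjusted p = 0.0158). Mamdc2, a secreted glycoprotein, measured 5.69, 4.94, 5.15 and 4.72 CPM, 92.7, 78.7 and 86.8 CPM and 42.1, 38.1 and 40.97 CPM in the same order. It was 7.88-fold above wild type (edgeR adjusted p = 1.20e-08) and 2.13-fold below control 5xFAD (adjusted p = 0.00657). Fabp5, a fatty acid binding protein, averaged 0.989 ± 0.635, 48.05 ± 1.44 and 17.3 ± 5.38 CPM (edgeR adjusted p = 1.70e-06 against wild type and 0.0496 against control). The comparison with control 5xFAD microglia was unstable: with 1 library left out, its count of 71 genes ranged from 0 without repopulated library 2 to 328 without wild-type library 3. The count was 1 with a term for Y-linked transcripts, which most control libraries lacked. It was 619 with DESeq2, 630 with only those groups and 676 without wild-type libraries 2 and 3 together. Statements on repopulated against control microglia rest on this comparison.

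**Figure D2:**
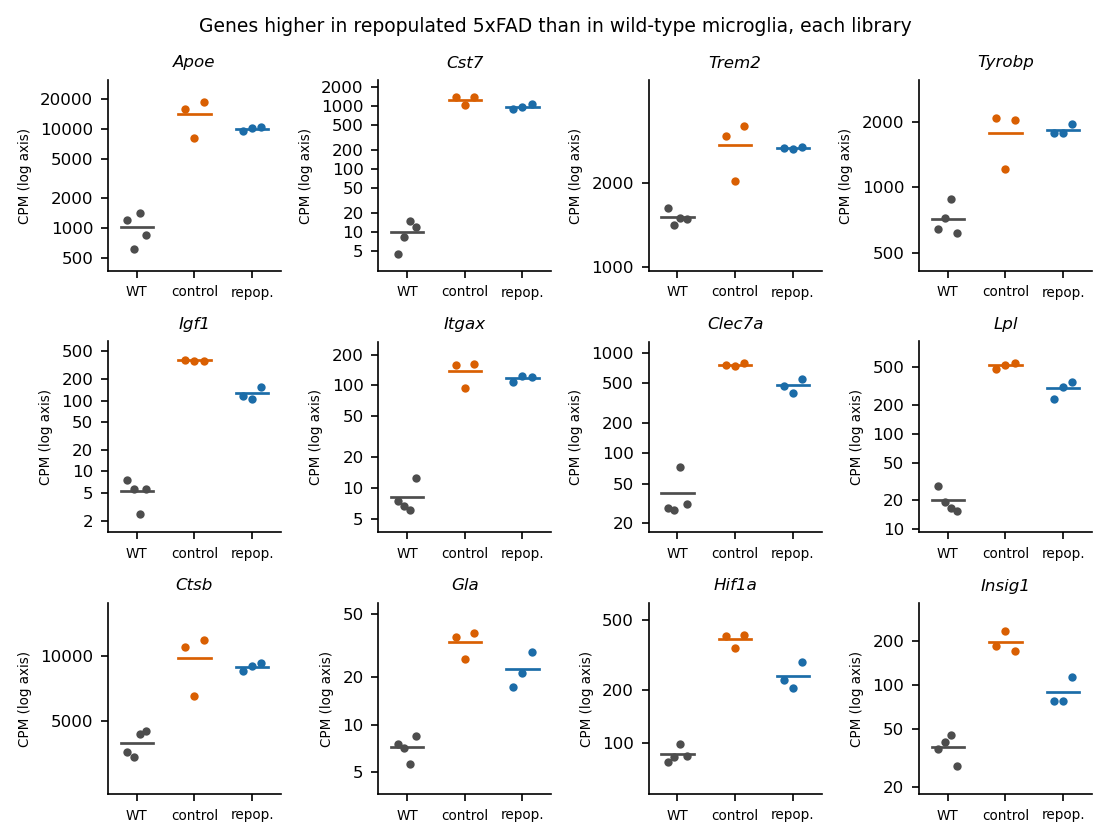
Level of 12 genes in each library as CPM on a log axis, with points for the 4 wild-type (WT), 3 control 5xFAD and 3 repopulated (repop.) libraries and a line at each group's mean. For all 12 genes the repopulated libraries lie above all wild-type libraries, and for Igf1, Clec7a, Lpl, Hif1a and Insig1 they also lie below all control libraries.

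Of the 5 list members that were not called, 3 were higher and 2 lower in the mean. Cd74, the invariant chain of MHC class II, measured 310.5, 219, 223 and 812 CPM in wild-type and 891, 2988 and 1315 CPM in repopulated libraries (edgeR adjusted p = 0.126). The groups did not overlap, but the spread within each was wide, and without wild-type library 4 the adjusted p was 0.0123, the lowest over all alternatives (0.0123 to 0.4). Lgals3bp averaged 285 ± 227 and 562 ± 67.7 CPM (adjusted p = 0.468), and Cd300lb 1.58 ± 1.21 and 5.52 ± 3.14 CPM (adjusted p = 0.101). Both were called in some settings: Lgals3bp without wild-type library 4 and with a replicate block, and Cd300lb without wild-type library 3, without wild-type libraries 2 and 3 together and with DESeq2. Over all alternatives the log2 fold change of Lgals3bp ranged from 0.56 to 1.76 (adjusted p 0.000884 to 0.723) and that of Cd300lb from 1.24 to 2.74 (0.00739 to 0.441). Postn averaged 11.6 ± 1.22 and 7.17 ± 3.14 CPM (adjusted p = 0.266), and Gpx3 2.200 ± 0.789 and 1.103 ± 0.606 CPM (adjusted p = 0.557).

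The largest changes were in genes with almost no reads in wild-type microglia. Of the 425 higher genes, 17 had 0 reads in all wild-type libraries. Such genes entered the test only through the 5xFAD libraries and, if called, could only be higher, so their count is no result by itself. Among them are the egg transcripts Omt2a, Omt2b, Obox5, Tcl1b1, Tcl1b2 and Oosp1, described below, which may not come from the microglia. Baiap2l2, which encodes an I-BAR protein that shapes membrane protrusions, had 0, 0, 0 and 0 estimated reads in the wild-type and 323, 426 and 357 in the repopulated libraries. Against 3 reads over the pooled wild-type libraries, the limit that a count of 0 allows for counting error alone, it was at least 439-fold higher. On the same basis Tmem254c was at least 357-fold, Lgi2 at least 317-fold and Dkk2, a secreted Wnt modulator, at least 269-fold higher. Tmem254c has close paralogs, among which reads may be divided. Control 5xFAD libraries held Baiap2l2 at 22.5, 13.4 and 25.2 CPM and Lgi2 at 15.2, 9.57 and 14.9 CPM, and the repopulated libraries at 14.5, 18.7 and 15.8 CPM and 11.5, 13.2 and 10.7 CPM, within or close to the control range.

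Hpse encodes heparanase, which cleaves heparan sulfate. It had 5, 2, 0 and 3 reads in wild-type and 309, 504 and 618 in repopulated libraries, 170.2-fold by CPM (edgeR adjusted p = 1.12e-07). Dcstamp, the fusion protein of osteoclasts and giant cells, had 0, 3, 1 and 2 and 129, 167 and 218 reads (adjusted p = 4.53e-07). Atp6v0d2, the proton pump subunit typical of osteoclasts, had 1 read in the 4 wild-type libraries together and 5.26, 3.24 and 4.42 CPM in the repopulated ones (adjusted p = 1.31e-06). Gpnmb, another gene shared by plaque microglia and osteoclasts, measured 0.434, 0, 0.0486 and 0.135 CPM in wild-type and 3.69, 9.07 and 14.2 CPM in repopulated libraries. Gpnmb passed edgeR's test (adjusted p = 7.05e-04) but not limma-voom's (0.17, range over alternatives 5.11e-08 to 0.17). Among these genes the repopulated libraries never overlapped the wild-type ones. Lack of overlap was a condition for the genes taken as most changed, so it is no result by itself. Of all tested genes 9.13% were higher without overlap.

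The 15 largest increases among genes above the lowest quartile of expression also held Bhlhe40, a transcription factor of stress and lipid responses (0.418 ± 0.348 to 26.7 ± 3.49 CPM, 62.2-fold), and Lox, lysyl oxidase (51.6-fold). Ch25h, which makes 25-hydroxycholesterol, rose from 1.11 ± 0.918 to 41.3 ± 17.6 CPM, Rab7b, a lysosomal Rab GTPase, from 1.37 ± 1.11 to 44.8 ± 6.06 CPM and Fabp3 from 0.482 ± 0.322 to 15.9 ± 1.18 CPM. Actr3b, an actin-related protein, rose from 0.742 ± 0.753 to 23.6 ± 4.54 CPM and Egln3, a prolyl hydroxylase of the hypoxia pathway, from 0.346 ± 0.349 to 13.95 ± 2.97 CPM. The edgeR adjusted p-values of these 7 genes lay between 5.05e-07 and 1.73e-04. Because wild-type levels were near 0, single wild-type libraries moved some of these folds: on the log2 scale Ch25h went from 5.21 to 5.85 and Actr3b from 4.97 to 5.81 without wild-type library 1, Atp6v0d2 from 7.93 to 9.54 and Gpnmb from 5.82 to 7.05 without the same library, and Rab7b from 5.01 to 5.76 and Egln3 from 5.29 to 5.92 without library 4.

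Of the lysosomal genes, a minority passed the test. Of 46 tested members 12 rose, 1 fell and 33 did not pass (28.3% called, against 4.18% of all tested genes), with a median log2 fold change of 0.36. In control 5xFAD against wild type 22 rose and 1 fell (median 0.46), where 10.1% of all tested genes rose. The members that rose were the proteases Ctsb, Ctsd, Ctsl and Ctsz, the glycosidases Gla, Glb1, Gusb, Hexa and Man2b1, the membrane proteins Cd63 and Cd68, and Grn. Ctsb (chr14:63122462-63145923) measured 3600.1, 3413, 4339 and 4484 CPM in wild-type and 8531, 8976 and 9244 CPM in repopulated libraries, 2.25-fold higher (edgeR adjusted p = 0.00176). Ctsd averaged 5249.6 ± 695 and 12176 ± 1059.9 CPM, and Ctsl 857 ± 115 and 1614 ± 32.1 CPM. Gla, alpha-galactosidase A, rose 3.11-fold, the largest fold among these 12, from 7.57, 7.17, 5.64 and 8.45 CPM to 17.3, 21.2 and 28.9 CPM (adjusted p = 2.60e-04). Hexa, the alpha subunit of hexosaminidase A, rose 2.03-fold, Gusb, beta-glucuronidase, 2.25-fold and Glb1, beta-galactosidase, 1.805-fold. None of these groups overlapped.

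Sgsh, heparan N-sulfatase, was the only lysosomal member that fell, from 28.8, 11.4, 23.7 and 21.9 CPM to 7.73, 9.199 and 10.6 CPM (2.34-fold, edgeR adjusted p = 0.0176). Its call was lost without any 1 of the 3 repopulated libraries and Grn's, 1.58-fold higher (adjusted p = 0.0279), in 6 alternatives, and over all alternatives the adjusted p ranged from 0.000754 to 0.112 for Sgsh and from 0.000417 to 0.128 for Grn. Of 17 tested subunits of the vacuolar proton pump, which acidifies lysosomes, 3 rose: Atp6v0d2, Atp6v0c (1.55-fold) and Atp6v1a (1.41-fold). The last pair lost the call in 9 and 10 alternatives. The list's count of 3 (17.6% called, against 4.18% of all tested genes) became 1 without wild-type library 1, 2 or 4, control library 1 or repopulated library 1 or 3.

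Promoters of lysosomal genes are known to carry the CLEAR element, whose core is an E-box bound by TFEB and related factors, and genes of activated microglia often carry AP-1 sites. RefSeq sequence (GRCm38.p6) of the 250 bases before the listed start was at hand for 10081 of the 12505 tested genes. The E-box core TCACGTG, on either strand, was present in 5.67% of them, in 11 of 37 lysosomal members and in 3 of the 11 lysosomal members that rose (Ctsd, Gla and Glb1). It was present in 5.97% of all genes that rose and in 6.41% of those that fell, Sgsh among the latter. For AP-1 the pattern TGANTCA was sought, in which N is any base. It is looser than the AP-1 core, whose middle base is G or C. The pattern was present in 5.32% of all promoters and in 8.66% of those of genes that rose. It was in 4 of all 32 disease-associated promoters (12.5%), and all 4 belong to the 28 whose genes rose (Cd68, Igf1, Itgax and Trem2). A match describes these letters and no binding. The sequences of Gla (chrX:134601006-134601255, minus strand) and Ctsd (chr7:142387828-142388077, minus strand) show the E-box, in capitals, at 2 places each. Those of Trem2 (chr17:48346151-48346400, plus strand), Itgax (chr7:128129300-128129549, plus strand) and Igf1 (chr10:87860861-87861110, plus strand) show the TGANTCA match in capitals. Each is written 5′ to 3′ on the gene's strand up to its start.
Gla: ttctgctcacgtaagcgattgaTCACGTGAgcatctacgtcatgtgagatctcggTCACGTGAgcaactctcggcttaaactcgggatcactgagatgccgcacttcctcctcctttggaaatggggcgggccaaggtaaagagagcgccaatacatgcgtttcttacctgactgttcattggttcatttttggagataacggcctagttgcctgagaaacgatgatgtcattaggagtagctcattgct
Ctsd: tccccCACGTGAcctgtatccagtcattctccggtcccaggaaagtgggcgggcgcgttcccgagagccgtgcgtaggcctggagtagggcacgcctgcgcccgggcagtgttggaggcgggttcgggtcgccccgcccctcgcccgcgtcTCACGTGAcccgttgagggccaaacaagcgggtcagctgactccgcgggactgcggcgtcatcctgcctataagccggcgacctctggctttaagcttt
Trem2: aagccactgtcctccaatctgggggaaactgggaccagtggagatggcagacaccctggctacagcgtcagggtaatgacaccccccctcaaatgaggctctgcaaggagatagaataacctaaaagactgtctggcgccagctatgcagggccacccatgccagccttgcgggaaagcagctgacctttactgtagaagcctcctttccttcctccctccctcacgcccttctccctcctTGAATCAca
Itgax: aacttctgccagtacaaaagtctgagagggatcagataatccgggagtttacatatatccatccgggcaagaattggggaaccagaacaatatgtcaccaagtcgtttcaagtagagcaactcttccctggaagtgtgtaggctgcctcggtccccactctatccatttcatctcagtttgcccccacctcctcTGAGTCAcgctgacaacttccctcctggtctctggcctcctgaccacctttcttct
Igf1: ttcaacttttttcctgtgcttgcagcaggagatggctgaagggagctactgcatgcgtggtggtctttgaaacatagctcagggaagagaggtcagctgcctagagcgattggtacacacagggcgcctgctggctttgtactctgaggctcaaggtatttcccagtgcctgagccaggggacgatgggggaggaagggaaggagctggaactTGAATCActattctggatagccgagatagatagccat

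The Gla and Ctsd sites are the palindrome TCACGTGA in full or with the first base missing. The TGANTCA match of Trem2 begins 9 bases before the start, that of Igf1 37 and that of Itgax 56 bases before it. In Itgax it reads TGAGTCA, the AP-1 core. In Trem2 and Igf1 it reads TGAATCA, which has another middle base. The 5 genes rose by very different amounts, from 1.77-fold for Trem2 to 23.9-fold for Igf1.

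Some genes of sterol synthesis and lipid handling were also higher. Of 25 tested genes of cholesterol synthesis and its control 9 rose and 0 fell (36% called, against 4.18% of all tested genes; median log2 fold change 0.57). In control 5xFAD against wild type 12 rose and 0 fell (median 0.91), where 10.1% of all tested genes rose. Sqle, squalene epoxidase, measured 0.627, 0.902, 1.895 and 1.57 CPM in wild-type and 4.72, 8.19 and 8.66 CPM in repopulated libraries (5.73-fold, edgeR adjusted p = 0.00124). Fdps, farnesyl diphosphate synthase, rose 2.01-fold and Cyp51, lanosterol demethylase, 1.995-fold. Insig1, which holds the sterol-sensing machinery in the endoplasmic reticulum, measured 36.6, 40.6, 45.3 and 28.1 CPM in wild-type, 185, 233 and 172 CPM in control and 77.4, 78.1 and 113 CPM in repopulated libraries. It lay 2.38-fold above wild type (adjusted p = 6.37e-04) and 2.19-fold below control 5xFAD (adjusted p = 0.0208), with no overlap on either side. Sc5d, another enzyme of the pathway, rose 1.76-fold (adjusted p = 0.0138) but not without repopulated library 3. The list's count fell to 4 without that library and to 5 without repopulated library 2 or wild-type library 4.

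Among 33 tested genes of lipid handling and efflux 9 rose and 0 fell (27.3% called, against 4.18% of all tested genes; median 0.56). In control 5xFAD 13 rose and 3 fell (median 0.70), where 10.1% of all tested genes rose and 8.04% fell. Besides Apoe, Lpl, Fabp3, Fabp5 and Ch25h, the members higher in repopulated microglia were Acaca, Apoc4, Npc2 and Scd2. Acaca, acetyl-CoA carboxylase, which makes the building block of fatty acids, measured 3.86, 2.37, 3.35 and 4.403 CPM in wild-type and 16.4, 31.1 and 16.1 CPM in repopulated libraries. Repopulated library 2 was the highest, and all repopulated libraries lay above all wild-type ones (6.05-fold, edgeR adjusted p = 8.51e-05). Control 5xFAD libraries measured 23.2, 12.9 and 25.2 CPM.

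Glycolytic genes formed the list with the second-highest median. Of 27 tested genes of glycolysis and the hypoxia response 13 rose and 0 fell (48.1% called, against 4.18% of all tested genes), with a median log2 fold change of 0.71. In control 5xFAD 14 rose and 0 fell (median 0.70), where 10.1% of all tested genes rose. Hif1a, the transcription factor that drives this programme, measured 78.5, 83.3, 98.9 and 85.2 CPM in wild-type and 229, 207 and 287 CPM in repopulated libraries (2.79-fold, edgeR adjusted p = 7.52e-06). Pgk1, phosphoglycerate kinase, measured 69.7, 97.4, 111 and 76.2 CPM and 206, 199 and 208 CPM (2.31-fold, adjusted p = 2.60e-04). Tpi1, triose phosphate isomerase, rose 2.36-fold and Gapdh 2.04-fold, so that Gapdh, often used as a reference gene, was not level between these groups (270.1 ± 11.7 against 551 ± 44.7 CPM). The list's count stayed between 10 and 16 over all alternatives.

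Ribosomal protein genes differed from wild type by small amounts. All 78 tested members had a higher fitted level in repopulated than in wild-type microglia and 26 were called (33.3%, against 4.18% of all tested genes), with a median log2 fold change of 0.48. In control 5xFAD 71 were called higher (median 0.86), where 10.1% of all tested genes rose. Rpl5 measured 213, 209, 206 and 179 CPM in wild-type and 348, 325 and 313 CPM in repopulated libraries (1.63-fold, edgeR adjusted p = 0.00219), and Rpsa averaged 113 ± 17.4 and 209.8 ± 33.8 CPM (1.86-fold). The count depended on single libraries: it was 10 to 17 without any 1 of the repopulated libraries or without wild-type library 1, 2 or 4, and 54 without wild-type library 3. Among 71 tested subunits of oxidative phosphorylation 4 rose and 0 fell (median 0.24), a share of 5.63% near that of all tested genes, and 35 rose in control 5xFAD (median 0.53). The count of 4 became 16 without wild-type library 3 and 2 without wild-type library 2 or repopulated library 2 or 3. The clearest was Cox6a2, the heart and muscle form of a cytochrome oxidase subunit, at 2.12, 3.61, 6.51 and 2.38 CPM in wild-type and 47.2, 51.6 and 62.7 CPM in repopulated libraries (14.7-fold, adjusted p = 9.70e-07). Ndufa1, a subunit of complex I, rose 2.64-fold from 57.4 ± 18.3 to 152 ± 21.3 CPM.

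**Figure D3:**
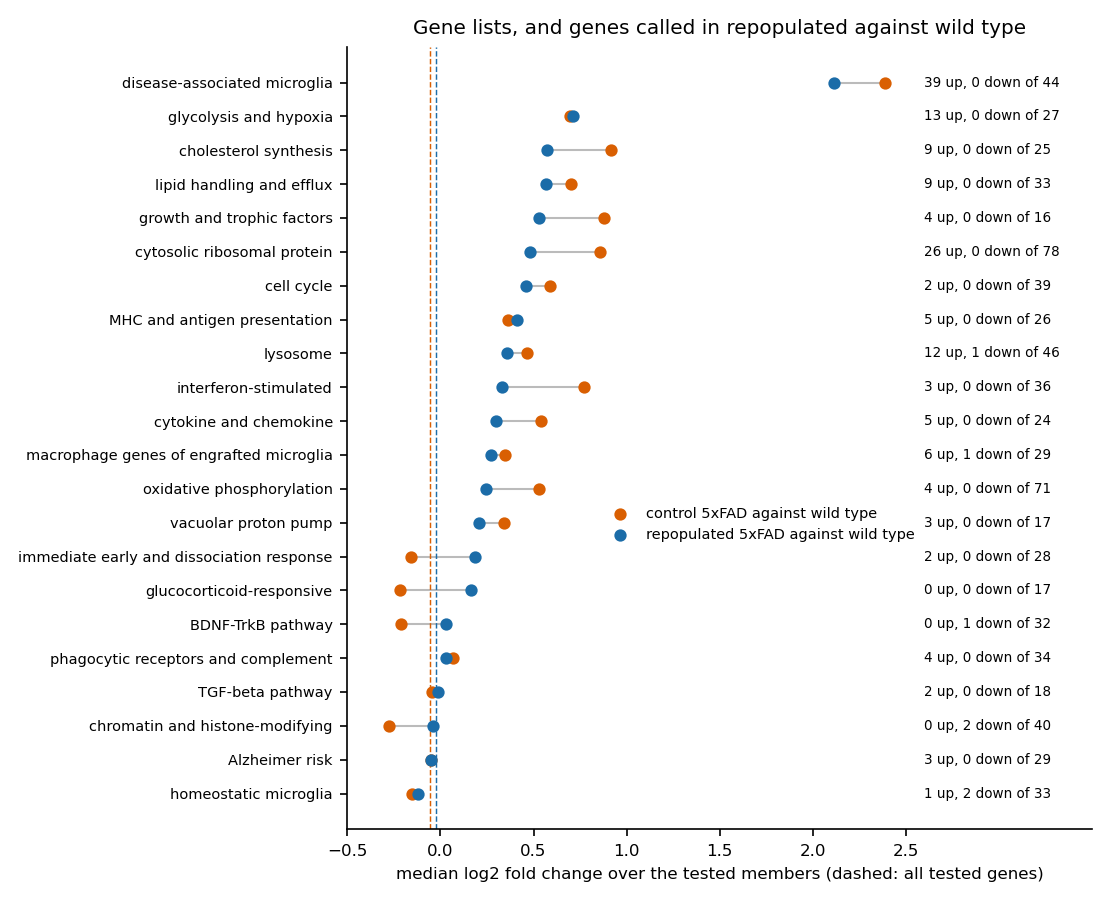
Median log2 fold change over the tested members of 22 gene lists (rows), for repopulated 5xFAD (blue) and control 5xFAD (orange) against the same wild-type libraries, with dashed lines at the medians of all tested genes and, at the right, the members called in repopulated against wild type. Disease-associated microglia stand at 2.12, glycolysis at 0.71, and homeostatic microglia at -0.12.

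Few interferon-stimulated genes passed the test. Of 36 tested members 3 rose and 0 fell (8.33% called, against 4.18% of all tested genes; median log2 fold change 0.33), and 17 rose in control 5xFAD (median 0.77), where 10.1% of all tested genes rose. Ifi204, a sensor of DNA, measured 14.2, 16.5, 30.4 and 35.4 CPM in wild-type, 106, 123 and 107 CPM in control and 54.3, 55.5 and 57.7 CPM in repopulated libraries (2.31-fold above wild type, edgeR adjusted p = 0.00956). Oas3 (adjusted p = 0.0263) and Ifi44 (adjusted p = 0.0316) also rose, from means under 1 CPM to 2.099 ± 0.191 and 4.26 ± 2.23 CPM. Of the 26 tested MHC and antigen presentation genes 5 rose (19.2% called; median 0.41), all of the class I side: B2m, H2-D1, H2-K1, H2-Q7 and the class I activator Nlrc5. B2m, the class I light chain, measured 2034, 2404, 3393 and 3465 CPM in wild-type and 4954, 5315 and 5631 CPM in repopulated libraries (1.88-fold, adjusted p = 0.0109). H2-K1 averaged 501 ± 201 and 968 ± 185 CPM, H2-Q7 5.401 ± 3.67 and 22.01 ± 9.94 CPM, and class I genes are similar enough that reads may be divided among them.

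Both lists turned on single libraries. Wild-type library 4 held more of H2-Q7, Nlrc5 and Cd74 than the other wild-type libraries (Nlrc5 11.05, 11.8, 12.4 and 29.3 CPM), and without it 9 interferon and 8 MHC genes rose. The interferon count was 5 without wild-type library 3 and 1 without wild-type library 1 or 2, control library 3 or repopulated library 2 or 3. The MHC count was 1 without repopulated library 2 and 2 or 3 without wild-type library 1 or 2, any 1 control library or repopulated library 1 or 3. Oas3, Ifi44, H2-K1, H2-Q7 and Nlrc5 lost the call in 9, 8, 10, 3 and 12 alternatives, and the B2m call was lost without repopulated library 3 (adjusted p = 0.0585, range over alternatives 2.01e-05 to 0.0585).

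Chemokines and growth factors were higher in a few members. Of 24 tested cytokine and chemokine genes 5 rose and 0 fell (20.8% called, against 4.18% of all tested genes; median 0.30): Ccl3, Ccl4, Ccl6, Csf1 and Spp1, all of which are also in the disease-associated list. Ccl3, which draws in other immune cells, measured 18.9, 17.9, 24.5 and 16.4 CPM in wild-type and 128, 132 and 234 CPM in repopulated libraries (8.48-fold, edgeR adjusted p = 2.05e-07). Ccl4 averaged 24.3 ± 5.96 and 108 ± 26.7 CPM and Ccl6 286 ± 74.4 and 1439 ± 182 CPM, and neither overlapped. Without wild-type library 3, 8 members rose. Of 16 tested growth and trophic factors 4 rose (25% called): Igf1, Grn, Fgf1 and Fgf2. Fgf1 measured 1.01, 2.75, 1.02 and 1.21 CPM and 10.9, 10.3 and 9.503 CPM (6.79-fold, adjusted p = 9.03e-05). Fgf2 rose 1.88-fold (adjusted p = 0.0211, 0.00204 to 0.164 over alternatives), and without wild-type library 2 or repopulated library 1 or 2 the list's count was 2.

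Macrophage genes linked to engrafted or regrown microglia passed the test in a minority of members, and the origin of the cells was not measured. Of 29 tested members of a list of macrophage genes reported in engrafted or regrown microglia, 6 rose and 1 fell (24.1% called, against 4.18% of all tested genes; median 0.27). In control 5xFAD 8 rose and 1 fell (median 0.35), where 10.1% of all tested genes rose and 8.04% fell. Crip1, a LIM-domain protein, measured 2.701, 1.61, 4.81 and 2.696 CPM in wild-type, 39.1, 34.9 and 32.9 CPM in control and 22.4, 23.7 and 29.5 CPM in repopulated libraries (edgeR adjusted p = 3.63e-06 against wild type). Lyz2, lysozyme, rose 3.56-fold to 1856 ± 56.96 CPM from wild-type values of 427, 439, 826 and 391 CPM. Cybb, the catalytic subunit of the phagocyte NADPH oxidase, averaged 30.8 ± 8.07 CPM in wild-type, 170.3 ± 27.1 CPM in control and 78.4 ± 4.88 CPM in repopulated libraries. It differed from both (adjusted p = 3.94e-04 and 0.0249). Anxa2 rose from 3.46 ± 2.99 to 26.3 ± 3.77 CPM, and its log2 fold change went from 2.93 to 3.69 without wild-type library 3. Ms4a7, a marker of macrophages that settle in the brain, measured 23.2, 12.2, 8.12 and 13.4 CPM and 7.91, 9.77 and 16.97 CPM with overlapping groups (adjusted p = 0.768). Ms4a6b, of the same family, fell 1.69-fold from 202 ± 26.3 to 119.6 ± 21.2 CPM (adjusted p = 0.0116), a call lost without repopulated library 1 or 2 (0.000285 to 0.089 over alternatives).

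Most homeostatic genes did not pass the test against wild type. Of 33 tested members 1 rose and 2 fell, where 0.784% of all tested genes fell, and the median log2 fold change was -0.12. In control 5xFAD 2 rose and 12 fell (median -0.16), where 8.04% of tested genes fell. The member that rose was Egr1, an immediate early transcription factor (2.997-fold, edgeR adjusted p = 0.00319). Tmem119, a microglial surface marker, measured 1908, 1317, 1337 and 1716 CPM in wild-type, 596, 547 and 777 CPM in control and 1141, 1279.8 and 1123 CPM in repopulated libraries. All repopulated values lay below all wild-type and above all control values, and the difference passed the test against control (adjusted p = 0.0468) and not against wild type (log2 fold change -0.41, SE 0.17, adjusted p = 0.247). P2ry12, the ADP receptor that guides microglial processes, measured 7287, 9408, 8016 and 7262 CPM in wild-type and 5396, 4383 and 7165 CPM in repopulated libraries. The groups did not overlap but repopulated library 3 came close to the wild-type range (log2 -0.50, SE 0.18, adjusted p = 0.158). P2ry13 averaged 1995 ± 143 and 1402 ± 348 CPM (adjusted p = 0.106). Each of these 3 was called in some settings: Tmem119 with GC content and length offsets (adjusted p = 0.0223, 0.0223 to 0.561 over alternatives), P2ry12 with DESeq2 (0.0382, 0.0382 to 0.563) and P2ry13 with DESeq2 or without repopulated library 3 (0.018 to 0.444).

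Sall1, a transcription factor that maintains microglial identity, averaged 392 ± 53.8 CPM in wild-type, 255 ± 33.8 CPM in control and 342 ± 28.4 CPM in repopulated microglia, and the repopulated range overlapped the wild-type one (edgeR adjusted p = 0.593). Csf1r, the drug's target, measured 4678, 3252, 3494 and 4511 CPM in wild-type, 2773, 2085 and 2967 CPM in control and 3632, 3885 and 3627 CPM in repopulated libraries (log2 -0.10, SE 0.17, adjusted p = 0.863). The repopulated values fell inside the wild-type range and above all control values. Cx3cr1, the fractalkine receptor, measured 1685, 1265, 1406 and 1997 CPM and 995, 1089 and 1090.0 CPM and was 1.501-fold lower. Its adjusted p of 0.04900 was at the threshold, and the call was lost in 9 alternatives (0.002 to 0.235). Crybb1, a crystallin marking mature microglia, was lower in every setting tried, at 116, 92.2, 120.3 and 140.2 CPM in wild-type and 56.8, 61.9 and 47.7 CPM in repopulated libraries (2.11-fold, adjusted p = 6.78e-04). Control 5xFAD libraries held Crybb1 at 44.7, 37.7 and 46.3 CPM.

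Genes lower in repopulated microglia showed smaller changes than the higher ones. Of the 18 lower genes examined in detail, 4 kept the call in all 22 alternatives: Bank1, Crybb1, Gimap9 and Sema6d. Of 90 higher ones 66 did so. The 18 leave out some of the most changed lower genes, such as Kif24 and Ank3, so these counts hold for the genes examined only. Bank1, a scaffold of immune receptor signalling, measured 54.6, 66.7, 48.9 and 59.7 CPM in wild-type and 21.7, 20.3 and 28.2 CPM in repopulated libraries (2.45-fold, edgeR adjusted p = 4.16e-04). Sema6d, a semaphorin, measured 19.1, 18.7, 26.6 and 24.1 CPM and 6.34, 10.3 and 12.2 CPM (2.298-fold, adjusted p = 0.00754). Control 5xFAD libraries held Bank1 at 23.2 ± 4.63 CPM and Sema6d at 10.1 ± 0.991 CPM, overlapping the repopulated ones. Gimap9, a GTPase of immune cells, fell 1.88-fold to 15.1 ± 0.708 CPM. Gimap9, Siglece and Ifngr1 lie outside the selection rule for named genes and were chosen after their values were seen.

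Siglece, an inhibitory receptor for sialic acid, measured 104, 74.2, 86.2 and 106 CPM in wild-type, 27.8, 31.9 and 31.1 CPM in control and 52.3, 49.3 and 59.8 CPM in repopulated libraries. It was 1.72-fold below wild type (edgeR adjusted p = 0.00622) and 1.78-fold above control (adjusted p = 0.0354), and lost the first call without repopulated library 2 (4.64e-05 to 0.0555 over alternatives). Siglecg, of the same family, fell 2.42-fold to 4.84 ± 1.47 CPM (adjusted p = 0.0168), a call lost without repopulated library 1 or 3 (0.000819 to 0.0987). Ifngr1, a chain of the interferon-gamma receptor, fell 1.595-fold from 1765 ± 133 to 1107 ± 78.9 CPM (adjusted p = 0.00802, lost without repopulated library 1 or 2). Ccr1, a chemokine receptor, fell from 28.97 ± 12.6 to 8.63 ± 4.42 CPM (adjusted p = 0.0205, lost in 5 alternatives). Cd209a, a lectin of dendritic cells, had the largest fall above the lowest quartile of expression. It measured 14.2, 32.6, 6.75 and 21.4 CPM in wild-type, 31.1, 60.6 and 19.6 CPM in control and 4.41, 4.42 and 3.71 CPM in repopulated libraries (4.48-fold, adjusted p = 0.0374, lost in 9 alternatives). Gpr165, Cav2 and Abcg3 also fell, each with a call that was lost in 6 to 10 alternatives.

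**Figure D4:**
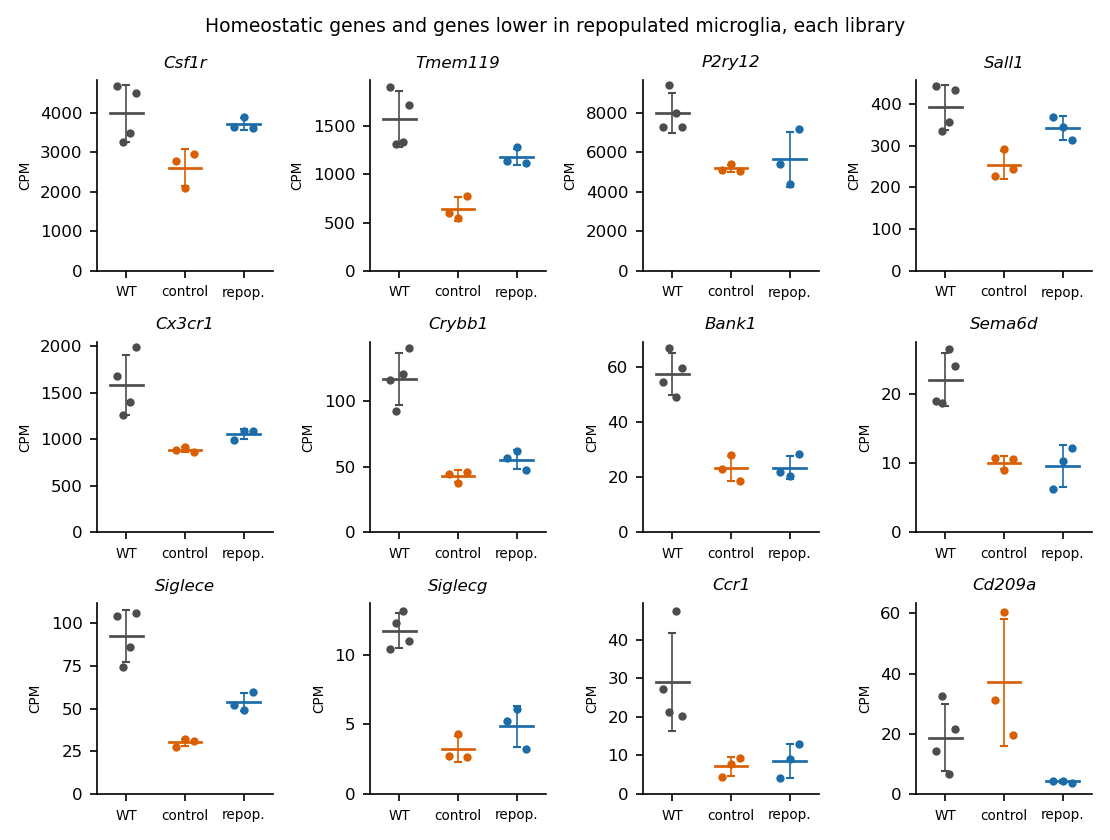
Level of 12 genes in each library as CPM on linear axes from 0, with points for the libraries of each group, a line at the mean and error bars of 1 SD (WT, wild type, n = 4; control 5xFAD, n = 3; repop., repopulated 5xFAD, n = 3). Csf1r and Sall1 overlap between repopulated and wild-type microglia, and Bank1, Crybb1, Sema6d and Siglece do not.

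The series is titled after BDNF signalling, so its genes were examined as a list. Of 32 tested members 0 rose and 1 fell (3.12% called, against 4.18% of all tested genes), with a median log2 fold change of 0.03. In control 5xFAD 0 rose and 5 fell (median -0.21), where 10.1% of all tested genes rose and 8.04% fell. Bdnf itself had too few reads to be tested. It measured 0.386, 0, 1.12 and 0.2696 CPM in wild-type, 0.296, 0 and 0 CPM in control and 0.539, 0 and 0.0442 CPM in repopulated libraries, which is 8, 0, 23 and 6, 6, 0 and 0 and 12, 0 and 1 estimated reads, so no difference was detectable at this depth. Ntrk2, the BDNF receptor TrkB, measured 1.78, 1.805, 8.21 and 1.89 CPM in wild-type and 2.47, 1.27 and 1.901 CPM in repopulated libraries (log2 -0.86, edgeR adjusted p = 0.573), and its direction rested on wild-type library 3, without which the log2 fold change was 0.051. The member that fell was Prkca, a protein kinase C (1.703-fold, adjusted p = 0.0162), and not without repopulated library 1 or 2 (0.000899 to 0.102 over alternatives). App averaged 117 ± 12.2 CPM in wild-type and 132 ± 4.74 CPM in repopulated microglia (adjusted p = 0.592). The transgene is a human sequence with a neuronal promoter, so the mouse App count in sorted microglia is no check of genotype.

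The remaining pathway lists held few calls, with shares of 0% to 11.8% called against 4.18% of all tested genes. Of 39 cell cycle genes 2 rose (5.13% called; median 0.46), the mitotic kinase Cdk1 at 2.85, 5.84, 2.19 and 5.71 CPM in wild-type and 8.901, 10.9 and 16.6 CPM in repopulated libraries (edgeR adjusted p = 0.0168, lost without repopulated library 3) and Stmn1 (1.82-fold, adjusted p = 0.0399, lost in 11 alternatives). Of 34 phagocytic receptor and complement genes 4 rose (Axl, Itgax, Trem2 and Tyrobp; 11.8% called, median 0.03), or 6 with 1 fall without wild-type library 3, and of 29 Alzheimer risk genes 3 rose (Apoe, Grn and Trem2; 10.3% called, median -0.05). Of 28 immediate early and dissociation genes 2 rose, Egr1 and Atf3 (1.88-fold, adjusted p = 0.001503), with 7.14% called and a median of 0.18. Of 18 genes of the TGF-beta pathway 2 rose (11.1% called), the pseudoreceptor Bambi (0.198 ± 0.219 to 3.41 ± 0.698 CPM) and the repressor Tgif1 (1.53-fold, lost without repopulated library 1 or 2). For Bambi the log2 fold change went from 4.05 to 4.90 without wild-type library 2. Of 40 chromatin genes 2 fell (5% called), Kdm5a and Nsd1 (adjusted p = 0.0447 and 0.04901), both lost in at least 14 of 22 alternatives. None of 17 glucocorticoid-responsive genes was called, with a median of 0.17, and 1 rose without wild-type library 3.

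Markers of other cell types were examined because the sorted population can hold other cells. The counts below stand beside 3.4% of all tested genes that rose and 0.784% that fell. Of 8 border macrophage markers 1 rose, the folate receptor Folr2, from 4.95 ± 0.993 to 10.2 ± 1.28 CPM (edgeR adjusted p = 0.0179, lost without repopulated library 1 or 3). By fitted level 6 of the 8 lay below wild type (median log2 fold change -0.54). The list's summed level was 73.2 to 123 CPM in wild-type libraries and 65.7 to 109 CPM in repopulated ones. Of 7 monocyte markers 1 rose, Fn1, from 0.282 ± 0.0554 to 1.75 ± 0.477 CPM (adjusted p = 0.0132, 0.000386 to 0.0819 over alternatives, lost in 5, among them without repopulated library 2 or 3). By fitted level 5 of the 7 lay below wild type (median -0.49), with a summed level of 23.4 to 49.1 CPM (wild type) and 21.7 to 26.9 CPM (repopulated). Neutrophil markers had 0 of 8 called and ranged from 38.3 to 265 CPM in wild-type libraries and from 71.7 to 179 CPM in repopulated ones. Dendritic cell markers had 1 of 6 called, Cd209a, and a lower sum in repopulated (13.4 to 17.9 CPM) than in wild-type libraries (20.1 to 47.4 CPM). Cd209a is part of that sum, at a mean of 18.7 CPM in wild-type and 4.18 CPM in repopulated libraries. The lower sum is therefore no result separate from Cd209a. Of 3 tested T and NK cell markers Klrb1c rose (1, 0, 1 and 5 reads in wild-type and 52, 29 and 28 in repopulated libraries, lost without repopulated library 1), and the list summed to 0.724 to 2.92 and 2.61 to 3.87 CPM. Of 3 tested endothelial and pericyte markers Flt1, a VEGF receptor, rose 10.9-fold from 1.45 ± 0.777 to 15.8 ± 1.36 CPM, while the list's sum was 15.1 to 39.1 CPM in wild-type libraries and 30.3 to 38.7 CPM in repopulated ones. Neuron, astrocyte, oligodendrocyte and erythrocyte markers had 0 called, as did the 1 tested B cell marker. Without wild-type library 3, 2 astrocyte markers and 1 oligodendrocyte marker were called higher, and the astrocyte median went from -0.44 to 0.79. Without wild-type library 1, 1 astrocyte marker was called lower. Summed neuron markers were 12.01 to 67.5 CPM in wild-type libraries and 5.305 to 11.5 CPM in repopulated ones, and astrocyte markers 223 to 563 and 240.4 to 247 CPM. Oligodendrocyte markers summed to 62.9 to 139 and 77.8 to 82.97 CPM, B cell markers to 52.2 to 78.6 and 39.6 to 49.3 CPM, and erythrocyte markers to 0.0449 to 283 and 0.135 to 1.86 CPM. The microglial markers summed to 44365 to 52097 CPM in wild-type libraries and 38751 to 51841 CPM in repopulated ones, with 1 of 8, Cx3cr1, called lower. The part of other cell types in the differences was not tested.

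A group of genes known from the egg and early embryo was present in all 3 repopulated libraries and nearly absent elsewhere. These 10 transcripts were chosen after their values were seen, and no test was made over the set. Omt2b, an oocyte maturation protein, had 0, 0, 0 and 0 estimated reads in wild-type, 0, 0 and 0 in control and 145, 123 and 244 in repopulated libraries, which is at least 203-fold above wild type (edgeR adjusted p = 8.73e-05). Omt2a had 89, 72 and 172 reads in the repopulated libraries and 0 in the other 7. Tcl1, which is also made by lymphocytes, had 73, 92 and 159 reads, and 1 read elsewhere. Btg4, needed for clearing maternal RNA, had 51, 49 and 95 reads in the repopulated libraries and 5 in the other 7 together. Obox5, Oog3, Dppa3, Oosp1, Tcl1b1 and Tcl1b2 behaved alike, and 6 of the 10 had no read in the other 7 libraries. All 10 passed the threshold against wild type, with edgeR adjusted p-values from 8.73e-05 to 0.0374. Because they were picked by their values, this count follows from the choice and cannot be set against the 3.4% of tested genes that were higher. The 6 without reads elsewhere entered the test only through the repopulated libraries. The calls of Tcl1b1, Tcl1b2 and Oosp1 were lost without any 1 repopulated library, and those of Obox5, Oog3 and Dppa3 without library 3.

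The egg transcripts kept similar proportions between the repopulated libraries. Of each transcript's reads in these libraries, library 1 held 18.1% to 30.3%, library 2 19.8% to 28.4% and library 3 47.7% to 60.2%. Summed over the 10, the level was 23.1, 20.7 and 44.3 CPM in repopulated libraries 1 to 3 and at most 0.705 CPM in any other library. Other genes of the egg did not share the pattern: the zona pellucida genes Zp2 and Zp3 had at most 2 reads in any library. Gdf9 had 163, 110, 155 and 220 reads in wild-type, 89, 77 and 73 in control and 204, 150 and 227 in repopulated libraries. Its repopulated counts thus overlapped the wild-type ones and lay above the control ones. Whether the sorted cells made the 10 egg transcripts or the reads were carried over from other material was not tested, so their values describe the libraries and not the microglia.

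**Figure D5:**
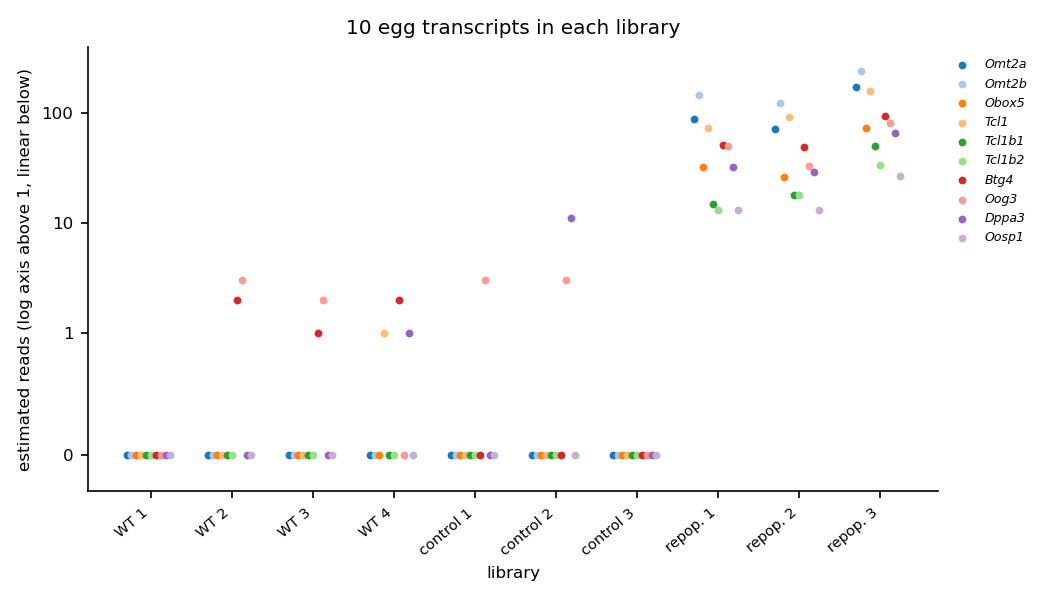
Estimated reads of 10 transcripts known from the egg and early embryo (colours) in each of the 10 libraries (horizontal axis), on an axis that is logarithmic above 1 read and linear below. Repopulated (repop.) libraries hold between 13 and 244 reads of each transcript, and wild-type (WT) and control 5xFAD libraries hold 11 or fewer.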

How the data were processed

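Total RNA of sorted hippocampal microglia was sequenced from 4 wild-type, 3 control 5xFAD and 3 repopulated 5xFAD samples. The deposited table gives, per the file headers, an estimated read count, TPM and FPKM for 19782 genes in each library. The authors aligned to GRCm38.p6, and HISAT and Bowtie2 are named, per the submitters' processing notes. Which program estimated the counts, and all versions, were not given in the sources used here. Of the nonzero estimated counts deposited by the authors, 20.1% were not whole (tolerance 0.001), and all were rounded before testing. The authors' TPM, which hold no depth, were used for levels between genes only, and the deposited FPKM were not used.

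Genes passing filterByExpr (12505) were tested with edgeR 4.0.16 (R 4.3.3; TMM, robust quasi-likelihood, prior count 0.125) in 1 model of the 3 groups, with Benjamini-Hochberg adjustment over all tested genes. CPM are rounded counts scaled to TMM-adjusted library size. SE is the absolute log2 fold change divided by the square root of F. The biological coefficient of variation was 27.3%. Alternatives used DESeq2 1.42.0, limma 3.58.1, other scalings and filters, left-out libraries, a replicate block, GC content and length, and 2 settings added after seeing the data (a term for Y-linked transcripts, and wild-type libraries 2 and 3 left out together). No 2 libraries of a group held copies of the same counts, which differed by at least 16.2 times the sampling noise (chi-square per degree of freedom). This cannot tell separate animals from separate preparations of 1 sample. The script was tested on simulated data. Intervals and limits for 0 reads cover counting error only.

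Genes named were drawn from the most changed genes, the lists and the study's subject. The first were, for higher and for lower separately, the 15 most changed among called genes without overlap above the lowest quartile of mean level. Each list gave up to 5 members by smallest p. Not all selected genes are named. Of the 15 lower ones, Gm10130, 4930519L02Rik, Kif24, A930033H14Rik, 4930512M02Rik and Ank3 were not followed over the alternatives. Others are named as list members that were called. The comparison, the 22 pathway and 12 marker lists and these rules were chosen with earlier results of these data known. Coordinates are those of RefSeq (GRCm38.p6), matched by gene ID for 19725 genes. Some results are not reported here.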

Additional observations from a re-analysis of the deposited data

Results flagged for a closer look

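Among the 122 genes examined in detail, 13 had a wild-type library far from the other 3, by Dixon's test of the gap between them against the group's range. Chance flags about 1 in 20 groups of continuous values, and groups of 3 libraries were not examined. That rate does not hold for Atp6v0d2, Tcl1 and Dppa3, flagged by 1 read against 0 in the other wild-type libraries. Genes with equal values in all wild-type libraries could not be flagged.

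In wild-type library 3, Clec7a was at 72.6 CPM (others 27.0 to 31.3), Lyz2 at 826 CPM (391 to 439) and Ntrk2 at 8.21 CPM (1.78 to 1.89). In wild-type library 4, genes of antigen presentation and the interferon response stood above the others, with Cd74 at 812 CPM (219 to 310), Nlrc5 at 29.3 CPM (11 to 12.4), H2-Q7 at 10.9 CPM (3.18 to 4.05) and Ifi44 at 1.26 CPM (0 to 0.193). Tcl1 and Dppa3 were each at 0.0449 CPM in library 4, which is 1 read, and at 0 in the other wild-type libraries.

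In wild-type library 1, Rpsa was at 139 CPM (102 to 105), Fabp3 at 0 CPM (0.617 to 0.680) and Atp6v0d2 at 0.0482 CPM, again 1 read, against 0 in the others. In wild-type library 2, Fgf1 was at 2.75 CPM (1.01 to 1.21).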

How the results depend on the processing

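The 523 genes called between repopulated and wild-type microglia became 284 to 688 when 1 library was left out, 385 to 688 when it was not a repopulated one. Other settings gave 376 to 780 (376 with a replicate block, 730 without wild-type libraries 2 and 3 together, 466 with a term for Y-linked transcripts). Of 90 higher genes examined 66 kept the call in every alternative, and of 18 lower ones 4. The genes examined are a selection and not all called genes. Near-silent genes have folds set by few reads, and Bdnf is below what this depth can compare.

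For repopulated against control 5xFAD microglia, the count of 71 became 619 with DESeq2, 125 with limma-voom, 166 with no filter, 125 with at least 5 CPM in 3 libraries, 630 with only those groups, 1 with the Y-linked term, 676 without wild-type libraries 2 and 3, and 0 to 328 with 1 library left out. For control 5xFAD against wild type, 2265 became 1315 to 2910 with 1 library left out. The causes were not tested. Ms4a7 changed sign without wild-type library 1 (log2 fold change 0.051, -0.69 to 0.051 with 1 library left out), and Ntrk2 without wild-type library 3 (0.051, -1.10 to 0.051) or libraries 2 and 3 (0.059).

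Replicate numbers did not pair the samples: the deviations of same-numbered wild-type and repopulated libraries correlated at -0.01, -0.09 and 0.07. With a replicate block 376 genes were called between repopulated and wild-type, 25 between repopulated and control, and 1464 between control and wild-type microglia.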
